A study of Mus musculus with 10 samples.

Results

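The genes of the cornified envelope and of suprabasal keratinocyte differentiation were examined in cultured mouse tongue epithelial cells. They were chosen by name and not by a cutoff on measured values, but with earlier results of these data known. Every row of the expression table was taken whose symbol starts with Sprr, or with Lce followed by a digit. To these came 21 further symbols of envelope precursors, plaque proteins, transglutaminases and their regulators, and suprabasal keratins. Of 18586 rows, 44 were members, of which 15 were Sprr rows, 10 were Lce rows and 19 were further named genes. Calml3 and Krt1 were the 2 listed symbols without a row. With at least 1 TPM (transcript abundance per length, scaled to the same total in every library) in at least 4 libraries, 32 members were tested among 11630 genes.

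The cornified envelope is the insoluble protein shell that a keratinocyte lays down beneath its plasma membrane as it leaves the basal layer and differentiates toward the surface of a stratified epithelium. Envoplakin, periplakin and involucrin form the first scaffold, small proline-rich (Sprr) and late cornified envelope (Lce) proteins are built in as precursors and bridges, and transglutaminases join them through covalent cross-links. The tongue and esophagus are lined by such an epithelium, in which keratins 4 and 13 mark suprabasal mucosal cells while keratins 1 and 10 are better known from the epidermis. The Sprr and Lce families, involucrin, loricrin, repetin and Crct1 lie together in the epidermal differentiation complex on mouse chromosome 3, to which 29 of the 44 members map.

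RNA-seq of polyadenylated RNA was available for 6 EY and 4 N libraries of primary cultures, grown from tongue epithelial cells isolated 15 days after transgene induction and sorted for green fluorescence. Cells of both genotypes carried Krt14-CreERT, which acts in basal keratinocytes, the LSL-rtTA transactivator that Cre releases, and the tetON_H2B-GFP reporter. EY cells also carried tetON_E6-E7, encoding human papillomavirus oncoproteins, and tetON_YAP1S127A, encoding a constitutively active YAP1, whereas N cells carried neither. Mice received tamoxifen and a doxycycline diet, and the study's methods keep doxycycline in a keratinocyte expansion medium. EY libraries were of lines EY3960, EY4028 and EY4174, with samples 1 and 2 of each, and N samples 1 to 4 were all of the line N4172. Genotype and culture line therefore cannot be told apart, libraries of a line were not independent animals, and p-values measure only the spread between these libraries. Every comparison with N used the same 4 N libraries. In bulk RNA, fewer differentiated cells and less RNA per differentiated cell cannot be told apart.

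The libraries had between 10852 and 11522 genes with at least 1 TPM, and their read depth is unknown. The row of the mouse gene Yap1 was at 34.7 to 57.1 TPM in EY and 17.2 to 20.9 TPM in N, and whether it takes up reads of the YAP1S127A transgene is not given in the sources used here. Keratinocyte markers were present throughout, at a summed 5830 to 8343 TPM for 7 of 7 genes. Those of fibroblasts, endothelial cells, skeletal muscle and minor salivary gland summed to at most 1.51 TPM in any library. Of these lists only 2 of 8 fibroblast, 4 of 5 endothelial, 3 of 7 skeletal muscle and 1 of 7 salivary gland genes had a row. The low sums therefore cannot show that such cells were absent. Col1a1, which defines fibroblasts, was at 0.0708 TPM or less, and the leukocyte marker Ptprc at 0.347 TPM or less. N sample 4 stood apart from the other N libraries in the members. It had the highest N value of 39 of the 44 members, and of 27 of the 32 tested members against 35.3% of all tested genes. For this reason comparisons are given with that library and, where it changes a call, without it. That choice was made on the members' own values, so calls without N sample 4 are a description and no independent support.

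Sequences upstream of Sprr2 genes are printed here because these near copies of one another differed in their order among the EY lines, with Sprr2a1 and Sprr2a2 lowest in EY3960 and most of the others highest there. The 200 bases before the start annotated by RefSeq (assembly GRCm38.p6, chromosome 3, plus strand) are given 5′ to 3′, with capitals marking AP-1 motifs (TGANTCA) and TATA boxes (TATAAA), which do not overlap one another. The windows are Sprr2a2 at chr3:92250447-92250646, Sprr2d at chr3:92338940-92339139, Sprr2f at chr3:92364987-92365186, Sprr2h at chr3:92385485-92385684 and Sprr2k at chr3:92432382-92432581.
Sprr2a2: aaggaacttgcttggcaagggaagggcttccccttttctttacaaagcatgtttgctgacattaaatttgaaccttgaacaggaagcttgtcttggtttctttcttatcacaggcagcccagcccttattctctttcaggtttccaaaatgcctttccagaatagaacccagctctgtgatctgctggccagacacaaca
Sprr2d: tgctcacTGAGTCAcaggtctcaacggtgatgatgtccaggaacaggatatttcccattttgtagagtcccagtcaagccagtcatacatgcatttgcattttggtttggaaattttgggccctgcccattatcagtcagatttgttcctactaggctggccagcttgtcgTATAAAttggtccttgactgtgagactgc
Sprr2f: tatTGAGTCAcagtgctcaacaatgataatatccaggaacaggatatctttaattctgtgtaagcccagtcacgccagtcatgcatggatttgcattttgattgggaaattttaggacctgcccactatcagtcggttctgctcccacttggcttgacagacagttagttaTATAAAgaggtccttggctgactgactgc
Sprr2h: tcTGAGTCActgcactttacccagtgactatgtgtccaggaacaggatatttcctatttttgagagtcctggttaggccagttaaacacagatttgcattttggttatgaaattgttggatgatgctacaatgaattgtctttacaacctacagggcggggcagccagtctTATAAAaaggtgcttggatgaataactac
Sprr2k: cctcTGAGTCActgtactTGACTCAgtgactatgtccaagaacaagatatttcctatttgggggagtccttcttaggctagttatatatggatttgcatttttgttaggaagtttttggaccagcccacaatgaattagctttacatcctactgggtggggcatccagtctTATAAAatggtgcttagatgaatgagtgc
Of 10 Sprr2 genes with a promoter in the RefSeq table, those of Sprr2b, Sprr2d, Sprr2e, Sprr2f, Sprr2h, Sprr2i and Sprr2k held a TATA box 29 bases before the start and an AP-1 motif beginning 193 to 198 bases before it. None of the windows of Sprr2a1, Sprr2a2 and Sprr2a3 held either motif. Their median pairwise identity was 82.9%, against 65.4% among the other 7 and 46.7% between the groups. Of the Sprr2a rows, Sprr2a3 was lowest in EY4028 and not in EY3960. Its levels in EY3960 and EY4174 differed by only 0.14 ± 0.09 (SE) on the log2 scale. Summed over the Sprr2a rows, whose reads are hard to separate, the level rose from EY3960 over EY4028 to EY4174. Sprr2a2 made up most of that sum. Any part of these sequences in the differences between lines was not tested. Only annotated starts were searched, and other starts of these genes were not examined.

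Motifs were also counted, on both strands of windows of 300 bases from 250 before to 50 after the start, for the 36 members with a promoter in the table. A gene was counted when any of its annotated windows held the motif. AP-1 motifs were in 17 of 36 (47.2%), against 8.97% of all 27025 genes in the table, and TATA boxes in 18 (50% against 15.7%). AP-1 motifs were in 9 of 13 Sprr windows and in 0 of 9 Lce windows. The motif GGAATG, bound by TEAD factors that partner YAP, was in 7 of 36 (19.4% against 16.6%), and AACNGGTT, the Grainyhead-like motif, in 1, that of Rptn (2.78% against 2.35%). A match of letters is a description, and binding was not measured in these libraries.

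**Figure D1:**
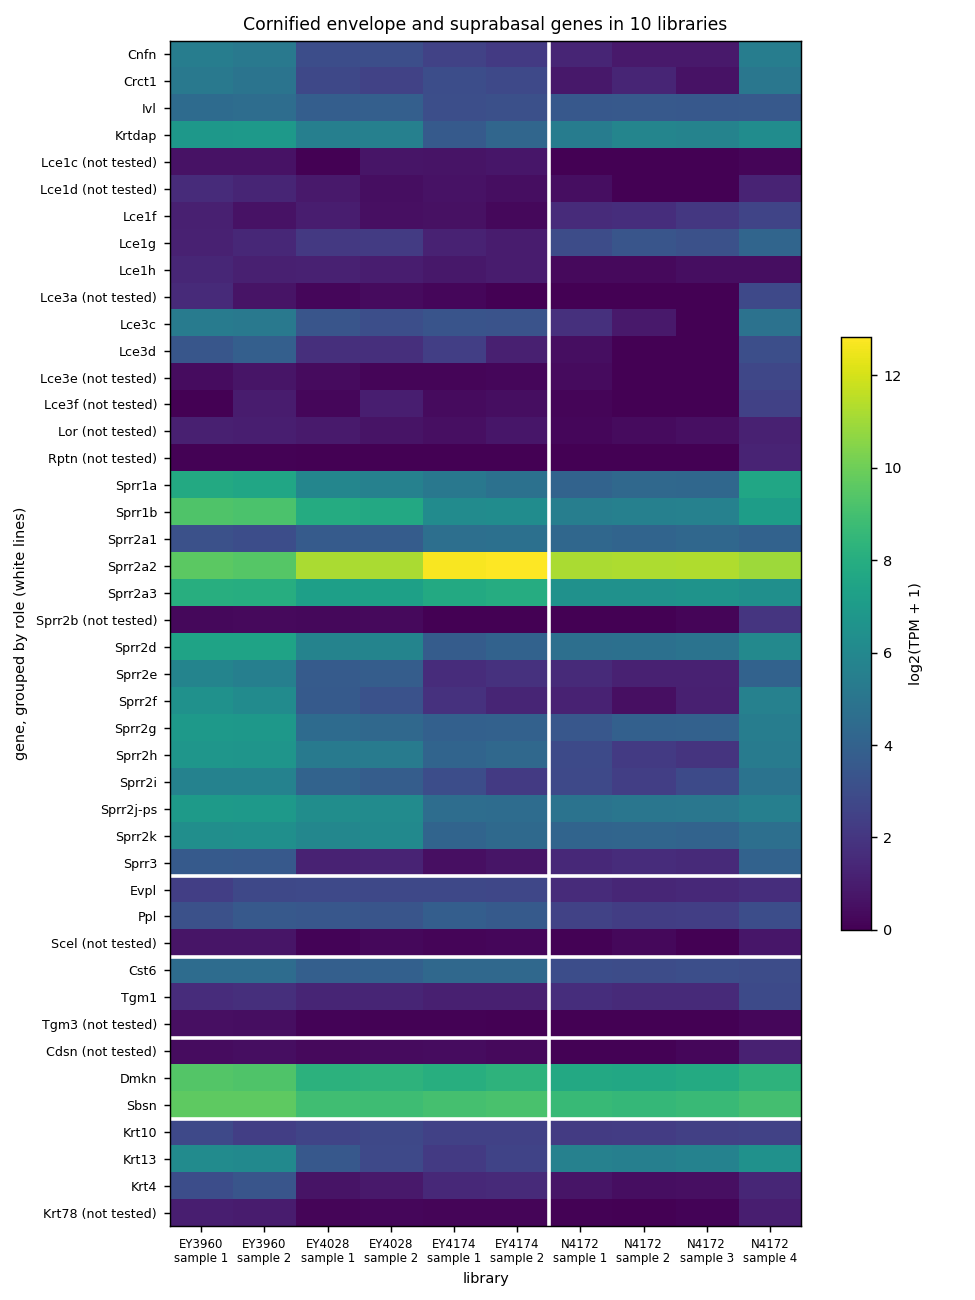
Heatmap of log2(TPM + 1) for the 44 members (rows, grouped by role between white lines) in 10 libraries (columns, EY left and N right of the white line). EY3960 has the highest line mean of the EY lines for 26 of the 32 tested members, N sample 4 is the highest N library for 39 of 44 members, and Sprr2a2 is brightest in EY4174.

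Over all libraries, EY differed from N in few members. A member was called where limma's adjusted p was under 0.01 and the log2 fold change of TPM + 1 (log2FC, which understates changes of low genes) was over 1 in size. Cst6, Evpl and Sprr2a3 were higher in EY, 3 of 32 against 1.85% of tested genes, and Lce1f and Lce1g were lower, 2 of 32 against 1.7%. With line as a random block, Lce1f and Lce1g were no longer called (limma adjusted p 0.0778 and 0.0292), and with the mean of each line as 1 sample none of the 5 was (adjusted p 0.178 to 0.305). The median log2FC was 0.85 over the tested members and 0.03 over all tested genes. All EY libraries lay above all N libraries for 5 tested members (Cst6, Evpl, Lce1h, Ppl and Sprr2a3) against 11.3% of genes. Lce1h passed the filter only through EY libraries, so its place among them is no independent support. All EY libraries lay below all N libraries for 2 members (Lce1f and Lce1g) against 9.1%. Without N sample 4, Ppl was called in addition, so that 4 members were higher (2.01% of genes) and 2 lower (1.31%).

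EY3960 and EY4174 differed from N in more members than EY as a whole did. The fit by line takes differences between EY lines out of the spread, and the fit of EY as a whole does not. The counts are therefore not directly comparable. Over all tested genes, 413 were called for EY, 819 for EY3960, 668 for EY4028 and 576 for EY4174. In EY3960, 11 members were higher (3.96% of genes) and 3 lower (3.08%). In EY4028, 3 were higher (3.56%) and 2 lower (2.18%), and in EY4174, 5 were higher (2.01%) and 4 lower (2.94%). Evpl was higher and Lce1g lower in all 3 lines, and the share of all tested genes called in all 3 was not counted. The call of Evpl in EY3960 was lost without EY3960 sample 2 or N sample 2. That of Lce1g in EY4028 was lost on leaving out any single EY library or N sample 2, 3 or 4. The median log2FC of the members was 1.52 in EY3960, 0.68 in EY4028 and 0.18 in EY4174, beside 0.01, 0.09 and -0.01 over all tested genes.

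Leaving out N sample 4 raised these counts. It had been singled out as the highest N library of most members, so more calls of higher members follow from that choice. Against N samples 1 to 3, 22 members were higher in EY3960 (4.7% of genes) and 3 lower (2.92%), 14 were higher in EY4028 (4.12%) and 1 lower (1.97%), and 10 were higher in EY4174 (2.32%) and 4 lower (2.9%). Cnfn, Crct1, Evpl, Lce3c, Lce3d and Sprr2h were then higher in all 3 lines, and none was lower in all 3. The share of all tested genes called in all 3 lines was not counted here either, so whether this is unusual is not known.

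**Figure D2:**
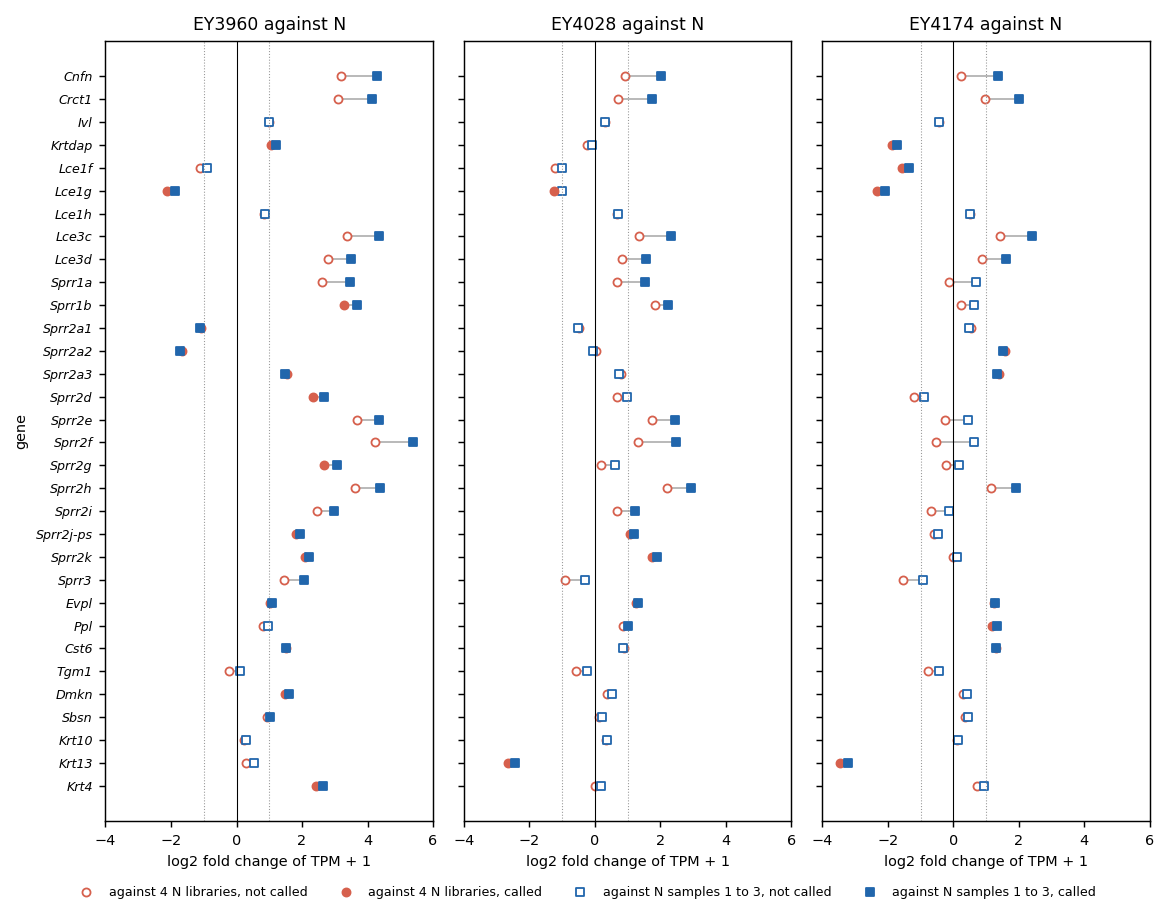
Log2FC values of TPM + 1 (x axis) of the 32 tested members (y axis) for each EY line against the 4 N libraries (red circles) and against N samples 1 to 3 (blue squares), with filled symbols for called genes and dotted lines at a log2FC of 1 and -1. Counts of members called higher rise from 11 to 22 in EY3960, from 3 to 14 in EY4028 and from 5 to 10 in EY4174 when N sample 4 is left out.

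The EY lines differed from one another in 10 members by limma's F test, against 5.12% of tested genes, with a difference over 1 on the log2 scale required between at least a pair of lines. These were Dmkn, Ivl, Krt13, Krt4, Krtdap, Sprr2a1, Sprr2a2, Sprr2d, Sprr2j-ps and Sprr2k. When the spread was taken from the EY libraries only, without N sample 4 in it, 22 members were called, against 5.8% of genes. EY3960 had the highest line mean for 26 of the 32 tested members (32.7% of genes), and 16 of 32 followed the order EY3960, EY4028, EY4174 without overlap (9.83%). Libraries of one line were close, with a median ratio between the pair of 1.1 in EY3960, 1.08 in EY4028 and 1.19 in EY4174.

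Sprr1a and Sprr1b, envelope precursors induced early in squamous differentiation and in stressed keratinocytes, were among the most abundant members. Sprr1b was at 628 and 582 TPM in EY3960, 238 and 211 in EY4028, 71.2 and 75.0 in EY4174, and 43.5, 46.5, 49.4 and 142 in N samples 1 to 4. EY3960 and EY4028 lay above all N libraries, while EY4174 lay between N samples 1 to 3 and N sample 4. The log2FC was 3.28 ± 0.46 (SE, limma adjusted p 0.00176) in EY3960, 1.85 ± 0.46 (adjusted p 0.0222) in EY4028 and 0.24 ± 0.46 (adjusted p 0.728) in EY4174. Without N sample 4 it was 2.25 (adjusted p 6.71e-09) in EY4028, which was then called, and 0.64 in EY4174. The call of Sprr1b in EY3960 was lost without either EY3960 library.

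Sprr1a was at 224 and 193 TPM in EY3960, 58.0 and 48.4 in EY4028, 33.6 and 26.4 in EY4174, and 15.8, 19.2, 18.7 and 195 in N. N sample 4 thus lay inside the range of EY3960 and 10.9 times above the mean of the other N libraries. No line was called with it (adjusted p 0.107 in EY3960). Without it the log2FC was 3.47 in EY3960 (limma adjusted p 1.11e-08) and 1.52 in EY4028 (adjusted p 8.25e-06), with 0.71 in EY4174.

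Sprr3, a precursor found in oral and esophageal epithelium, had 11.6 and 10.9 TPM in EY3960, 1.32 and 1.43 in EY4028, 0.456 and 0.649 in EY4174, and 1.82, 2.10, 1.89 and 15.5 in N. Only EY3960 exceeded N samples 1 to 3, and N sample 4 exceeded every EY library. Against N samples 1 to 3 it was called higher in EY3960 (log2FC 2.06, limma adjusted p 4.73e-07), and the values were -0.30 in EY4028 and -0.92 in EY4174.

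The Sprr2 rows outside Sprr2a shared the order EY3960, EY4028, EY4174 without overlap in 8 of 9 rows. Sprr2b, at most 2.90 TPM, was the exception. Summed over these rows, the level was 795 and 758 TPM in EY3960, 286 and 284 in EY4028, 94.4 and 99.4 in EY4174, and 95.6, 98.3, 105 and 311 in N. EY4174 was at the level of N samples 1 to 3, and N sample 4 was above EY4028.

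Sprr2f spanned the widest range between EY lines of the tested members, with 89.6 and 73.0 TPM in EY3960, 11.6 and 8.31 in EY4028, 2.57 and 1.53 in EY4174, and 1.32, 0.465, 1.16 and 48.2 in N. The EY3960 mean was 82.7 times that of N samples 1 to 3, and N sample 4 was 49.0 times that mean. With that library the log2FC of 4.23 ± 1.41 in EY3960 was not called (adjusted p 0.0705), and it was 5.40 ± 0.23 (limma adjusted p 5.41e-08) without it, when EY4028 was also called (2.48, adjusted p 2.19e-05).

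Sprr2h was at 105 and 102 TPM in EY3960, 36.2 and 39.0 in EY4028, 16.6 and 19.5 in EY4174, and 6.31, 3.58, 2.76 and 39.6 in N. Each EY library exceeded N samples 1 to 3, and N sample 4 exceeded EY4028 and EY4174. Without N sample 4 the log2FC values were 4.38, 2.94 and 1.92 in the 3 lines, all called, whereas with it none was.

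Sprr2k and the pseudogene row Sprr2j-ps depended less on N sample 4. Sprr2k was at 79.5 and 81.9 TPM in EY3960, 60.7 and 66.9 in EY4028, 16.5 and 19.7 in EY4174, and 16.5, 17.1, 15.8 and 24.4 in N. It was higher than N in EY3960 (log2FC 2.09, limma adjusted p 3.8e-06) and EY4028 (1.76, adjusted p 1.79e-05) and at -0.01 in EY4174. Sprr2j-ps rose in the same lines (1.81 and 1.08), with adjusted p of 5.85e-06 and 3.02e-04.

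Sprr2d and Sprr2g were called in EY3960 only, with log2FC values of 2.35 (limma adjusted p 0.00157) and 2.67 (adjusted p 0.00507). The call of Sprr2d was lost without either EY3960 library. That of Sprr2g was lost on leaving out any single EY library or N sample 2 or 3. Sprr2d lay below N samples 1 to 3 in EY4174, at 12.3 and 15.2 TPM against 24.6, 25.3 and 29.0. Sprr2e and Sprr2i were called in EY3960 and EY4028 without N sample 4, with log2FC values of 4.35 and 2.99 in EY3960 and of 2.44 and 1.22 in EY4028.

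Sprr2a1 and Sprr2a2 ran the other way. Sprr2a2, the most abundant member, was at 760.1 and 695 TPM in EY3960, 2355 and 2347 in EY4028, 6569 and 7258 in EY4174, and 2329, 2409, 2535 and 1969 in N. EY3960 lay below and EY4174 above every N library, and EY4028 lay within N. The log2FC was -1.66 ± 0.10 (SE, limma adjusted p 5.15e-07) in EY3960, 0.03 in EY4028 and 1.59 ± 0.10 (adjusted p 1.33e-06) in EY4174. N sample 4 was the lowest N library for the 3 Sprr2a rows and the highest for the other Sprr2 rows.

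Sprr2a1 had the same line order at a lower level, 8.17 and 7.09 TPM in EY3960, 11.8 and 12.2 in EY4028, 24.8 and 25.8 in EY4174, and 18.4, 16.5, 18.3 and 15.3 in N. It was lower in EY3960 (log2FC -1.07, limma adjusted p 3.59e-05). Sprr2a3, at 265 and 249, 151 and 156, and 217 and 249 TPM in the 3 lines and at 88.4, 90.3, 93.8 and 81.6 in N, was higher in EY as a whole (1.23 ± 0.16, adjusted p 3.17e-04). It was called in EY3960 (1.53) and EY4174 (1.38), and its order, unlike that of the other Sprr2a rows, had EY3960 first and EY4028 last. Only 3.06% of the 31-base stretches of Sprr2a1 transcripts and 2.17% of those of Sprr2a2 were unique to their gene in the GENCODE M21 transcripts. The share was 26.4% for Sprr2a3, 68.1% for Sprr2b, 77.3% for Sprr2i and 78.9% for Sprr2e. It was 89.7% to 99.2% for the other Sprr2 rows. Reads of Sprr2a1 and Sprr2a2 can therefore hardly be separated, and their summed level with Sprr2a3 is the safer value. That sum was 1033 and 951 TPM in EY3960, 2518 and 2515 in EY4028, 6810.4 and 7533 in EY4174, and 2436, 2516, 2647 and 2066 in N.

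**Figure D3:**
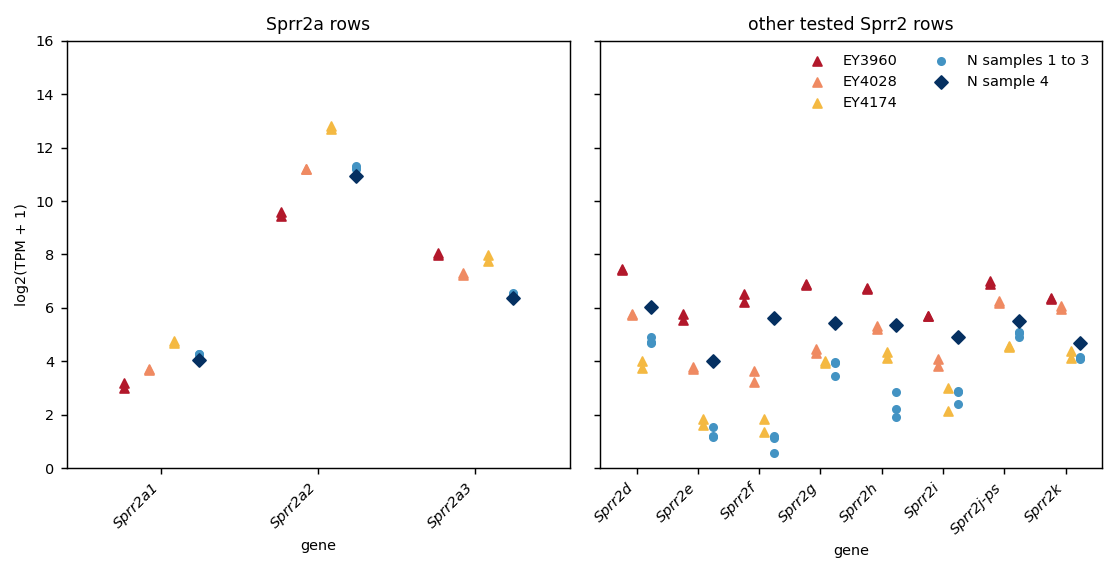
Log2(TPM + 1) of Sprr2 genes in each library, with Sprr2a rows on the left and the other 8 tested Sprr2 rows on the right. Triangles are the 2 libraries of each EY line, circles N samples 1 to 3 and diamonds N sample 4. Sprr2a1 and Sprr2a2 rise from EY3960 to EY4174, the 8 rows on the right fall in that order, and Sprr2a3 is lowest in EY4028.

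Lce genes encode precursors added late in cornification and were low in these cultures, with 5 of 10 rows tested. Lce3c was at 38.8 and 35.9 TPM in EY3960, 9.29 and 7.52 in EY4028, 8.92 and 8.78 in EY4174, and 2.46, 0.860, 0 and 27.3 in N. All EY libraries exceeded N samples 1 to 3, and N sample 4 fell between EY3960 and the other lines. Lce3d followed the same pattern, with 9.82 and 13.9, 2.31 and 2.28, and 4.19 and 1.20 TPM in the EY lines and 0.391, 0, 0 and 7.34 in N. Neither was called with N sample 4, and without it both were higher in every line, by log2FC values of 4.36, 2.33 and 2.40 for Lce3c and 3.51, 1.56 and 1.60 for Lce3d.

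Lce1g was lower in EY, at 1.24 and 1.65 TPM in EY3960, 3.32 and 3.66 in EY4028, 1.30 and 0.970 in EY4174, and 6.76, 9.27, 8.05 and 17.0 in N. Groups did not overlap, and the log2FC was -1.90 ± 0.30 (SE, limma adjusted p 9.99e-04). By line it was -2.13, -1.25 and -2.32, and in EY4028 it was -0.999 without N sample 4, just under the threshold on size. Lce1f had 0.650 ± 0.364 TPM (SD, n = 6) in EY and 3.17 ± 1.5 (SD, n = 4) in N, a log2FC of -1.30 ± 0.23 (adjusted p 0.00182). Lce1h went in the other direction without reaching the threshold on size (0.67, adjusted p 0.00413). Lce1h passed the filter only through EY libraries, and was at 0.250 to 0.414 TPM in N. N sample 4 was highest for Lce1f and Lce1g too, and there it lay farther from EY than the other N libraries did. Between 39.7% and 69.7% of the 31-base stretches of Lce transcripts were unique to their gene, so that single Lce levels are uncertain.

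Cnfn and Crct1, small cysteine-rich envelope proteins, had, together with Sprr2f, the largest gaps of N sample 4 to the other N libraries among the tested members. Cnfn was at 41.9 and 35.6 TPM in EY3960, 7.12 and 7.40 in EY4028, 4.87 and 3.59 in EY4174, and 1.53, 0.828, 0.813 and 42.6 in N. Crct1 was at 35.6 and 29.7, 5.84 and 4.86, and 7.27 and 6.05 TPM in the EY lines and at 0.778, 1.52, 0.540 and 33.0 in N. For both, every EY library exceeded N samples 1 to 3 and N sample 4 was at the level of EY3960. Without that library Cnfn was higher in the 3 lines by 4.28, 2.02 and 1.35 and Crct1 by 4.14, 1.73 and 2.00 on the log2 scale, all called.

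Ivl and Krtdap varied among the EY lines, and Ivl was even within N. Ivl, encoding involucrin, was at 21.1 and 23.2 TPM in EY3960, 13.3 and 13.7 in EY4028, 7.39 and 7.90 in EY4174, and 10.4, 11.02, 10.4 and 11.01 in N. EY3960 and EY4028 lay above and EY4174 below all N libraries, with log2FC values of 0.98, 0.31 and -0.44, none over 1 in size, and the lines differed by up to 1.42 (limma adjusted p 2.65e-05). Krtdap, encoding a secreted keratinocyte differentiation-associated peptide, was at 113 and 116 TPM in EY3960, 46.1 and 46.4 in EY4028, 11.3 and 17.9 in EY4174, and 41.2, 56.4, 51.4 and 75.8 in N. It was higher in EY3960 (1.05, adjusted p 0.00628) and lower in EY4174 (-1.87, adjusted p 2.78e-04). The EY3960 call was lost without either library of EY3960 or of EY4028, and without N sample 1, 2 or 3. Scaling by median ratios or quantile normalization also lost it.

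Cytolinkers of the envelope scaffold were even among EY lines. Evpl, encoding envoplakin, was at 4.14 and 5.78 TPM in EY3960, 6.03 and 5.80 in EY4028, 5.90 and 5.69 in EY4174, and 2.03, 1.59, 1.76 and 2.16 in N. Every EY library exceeded every N library, with a log2FC of 1.18 ± 0.12 (SE, limma adjusted p 4.77e-05), and the lines differed by 0.23 at most (adjusted p 0.509). Ppl, encoding its partner periplakin, had 10.5 ± 1.85 TPM (SD, n = 6) in EY and 4.99 ± 1.43 (SD, n = 4) in N, a log2FC of 0.95 ± 0.16 (adjusted p 0.00146), which was 1.11 without N sample 4. It was called in EY4174 (1.17, adjusted p 0.00166), and without that library in EY4028 too (1.03, adjusted p 2.90e-04). Scel, encoding sciellin, reached 0.695 TPM at most.

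Among cross-linking enzymes and their regulators, Cst6 was higher in EY and Tgm1 was not. Cst6 encodes cystatin M/E, an inhibitor of the cathepsins and legumain that process transglutaminases, and was at 22.2 and 22.2 TPM in EY3960, 13.8 and 14.2 in EY4028, 19.3 and 19.0 in EY4174, and 7.30, 6.85, 7.48 and 6.97 in N. Groups did not overlap and N sample 4 lay within N, with a log2FC of 1.23 ± 0.14 (SE, limma adjusted p 1.04e-04). Tgm1, encoding the main membrane-bound transglutaminase of keratinocytes, was at 1.17 to 2.26 TPM in EY and at 2.19, 1.85, 1.87 and 6.37 in N, with a log2FC of -0.53 (adjusted p 0.157). Tgm3, the transglutaminase of late cornification, reached 0.425 TPM at most.

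Secreted proteins of the upper layers were abundant and highest in EY3960. Dmkn, encoding dermokine, was at 677 and 634 TPM in EY3960, 306 and 309 in EY4028, 266 and 315 in EY4174, and 214, 209, 225 and 309 in N. It was higher in EY3960 alone (log2FC 1.47, limma adjusted p 3.51e-05). Sbsn, encoding suprabasin, was at 801 and 794 TPM in EY3960, 451 to 562 in the other lines, and 397, 376, 411 and 511 in N, and its log2FC in EY3960 was 0.92, which rose to 1.01 and was called without N sample 4. Cdsn, encoding the corneodesmosome protein corneodesmosin, was at most 0.399 TPM in EY and 1.26 in N sample 4.

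Krt13 and Krt4, the suprabasal keratins of the mucosa, differed between EY lines. Krt13 was at 72.5 and 66.0 TPM in EY3960, 10.4 and 6.22 in EY4028, 3.55 and 4.99 in EY4174, and 48.6, 44.8, 50.7 and 88.6 in N. EY3960 lay within N, and the other lines lay below every N library. The log2FC was 0.30 in EY3960, -2.65 ± 0.28 (SE, limma adjusted p 1.25e-04) in EY4028 and -3.45 ± 0.28 (adjusted p 2.98e-05) in EY4174. Krt4, the usual partner of Krt13, was at 7.27 and 9.34 TPM in EY3960, 0.579 and 0.830 in EY4028, 1.83 and 1.87 in EY4174, and 0.652, 0.375, 0.462 and 1.56 in N. It was called in EY3960 only (2.44 ± 0.23, adjusted p 2.48e-05), so that the pair was not called in the same direction in any line. Krt10 was low and even, at 4.20 to 6.15 TPM in EY and 3.69 to 4.77 in N (log2FC 0.22, adjusted p 0.203), and Krt78 reached 1.11 TPM at most.

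The other 12 members were below the filter, with highest values between 0.425 and 6.04 TPM. N sample 4 held the highest of the 10 values in 9 of them, among them Lce3a (6.04 TPM), Lce3e (5.67), Lce3f (4.67), Sprr2b (2.90) and Rptn (1.40), which were at 0 to 0.279 TPM in N samples 1 to 3 and at 1.92 TPM or less in EY. Lor, encoding loricrin, the main envelope protein of epidermis, was at 0.440 to 1.21 TPM in EY and 0.187, 0.283, 0.463 and 1.24 in N.

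The spread within N was larger in the members than over the tested genes as a whole. N sample 4 lay over 1 log2 unit above the mean of the other N libraries for 15 of 32 tested members, against 1.87% of tested genes. N samples 1, 2 and 3 did so for 0 members each, against 0.301%, 0.413% and 0.559% of genes. The median coefficient of variation of the tested members was 45.9% over the 4 N libraries and 9.97% over N samples 1 to 3, beside 12.9% and 8.25% for all tested genes. The 15 members were 9 Sprr rows, 3 Lce rows, Cnfn, Crct1 and Tgm1, and 13 of the 21 tested members on chromosome 3 were among them against 2 of 11 elsewhere. The other 17 tested members ranged from -0.30 for Sprr2a2 to 0.87 for Krt13 on the same scale, with Lce1f at 0.86, Krt4 at 0.78, Ppl at 0.62 and Krtdap at 0.61, and with Ivl at 0.05 and Cst6 at -0.04.

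**Figure D4:**
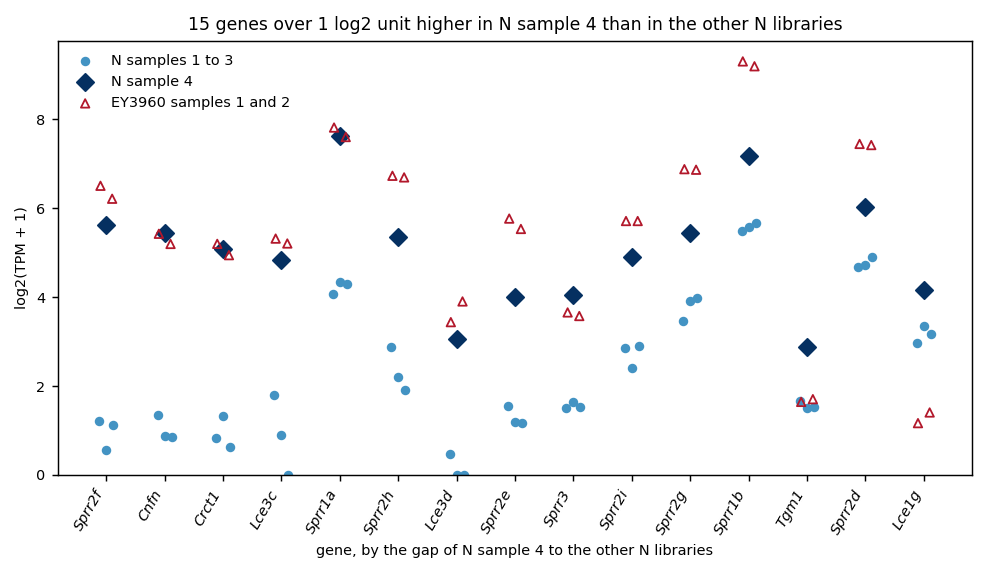
Log2(TPM + 1) of the 15 tested members that were over 1 log2 unit higher in N sample 4 than in the mean of the other N libraries, ordered by that gap. Circles are N samples 1 to 3, diamonds N sample 4 and open triangles the EY3960 libraries, and N sample 4 lies near or within EY3960 for Sprr1a, Cnfn and Crct1 and above it for Sprr3, Tgm1 and Lce1g.

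Summed levels showed the same order. Without Sprr2a rows, the members summed to 3532 and 3358 TPM in EY3960, 1496 and 1441 in EY4028, 1087 and 1177 in EY4174, and 904, 898, 958 and 1844 in N. Each EY library exceeded N samples 1 to 3, and N sample 4 lay between EY3960 and EY4028. With the Sprr2a rows included the order turned, with 4565 and 4309 TPM in EY3960 and 7897 and 8709 in EY4174, since Sprr2a2 alone made up most of the sum in EY4174.

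Related genes that are no members were examined by lists. Among 14 tested genes of the epidermal differentiation complex outside the families, 3 were higher in EY (1.85% of tested genes) and 0 lower, namely Pglyrp3, a peptidoglycan recognition protein (log2FC 2.38), S100a8, a calprotectin subunit (2.52), and Tchh, encoding trichohyalin (1.09). N sample 4 was over 1 log2 unit above the other N libraries for 4 of the 14 (1.87% of tested genes). Of 24 upper-layer genes of oral and esophageal epithelium, Stfa3 was higher in EY (1.43) and Clca2 lower (-1.38), 8 were higher and 1 lower in EY3960 (3.96% and 3.08% of tested genes), and N sample 4 was over 1 above for 6. Of 20 cornification enzymes and lipid barrier genes, 0 were called in EY as a whole, where Dgat2 (0.71) and St14 (0.61) had limma adjusted p of 0.0011 and 0.00119, and 5 were higher in EY3960, including Abca12, the lipid transporter of lamellar granules (1.96). Of 24 transcription factors of differentiation, Ovol1 was higher in EY (1.07) and Barx2 lower (-1.33). Those higher in EY3960 included Ehf, Elf3, Grhl1, Grhl3, Hopx and Ovol1.

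Basal layer genes did not share the pattern. Of 18 tested, 0 were higher and 1 was lower in EY (Igfbp2), and Krt15 was also lower in each line, while N sample 4 was over 1 log2 unit from the other N libraries in none of them. Krt5 and Krt14 had log2FC values of 0.05 and -0.06 in EY and were lowest in EY3960, with Krt14 at 2517 and 2567 TPM there and 3079 to 4252 TPM elsewhere.

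Few markers of other cells passed the filter, namely S100a8, S100a9, Cd68 and Gpnmb. Each was higher in N sample 4 than in any other N library and, among the EY lines, highest in EY3960. Of the granulocyte list S100a8 and S100a9, which keratinocytes also express, were tested, and its sum was 17.2 to 81.7 TPM in EY, 1.80 to 3.67 in N samples 1 to 3 and 10.3 in N sample 4, while the granulocyte genes Csf3r and Cxcr2 reached 0.122 and 1.14 TPM at most. Ly6g, a granulocyte surface marker, was at 1.26 TPM in N sample 4, at most 0.153 in the other N libraries and 0.131 to 1.16 in EY. The melanocyte list summed to 8.78 to 11.1 TPM in N samples 1 to 3, 26.1 in N sample 4 and 1.33 to 3.25 in EY, of which Gpnmb, also expressed by other cells, was 24.8 in N sample 4, and Pmel, Dct and Tyr were at most 0.726. Mlana, a melanocyte antigen, was lowest of the N libraries in N sample 4, at 0.665 TPM against 1.15, 2.88 and 1.05, and was at most 0.548 in EY. Of the immune list only Cd68 passed the filter, at 68.7 TPM in N sample 4, 42.1 to 47.6 in the other N libraries and 68.9 and 71.8 in EY3960. The part of these in the members' values was not tested.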

How the data were processed

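The table deposited by the authors gave TPM for 18586 rows named by gene symbol in 10 libraries, and no counts, so that sequencing depth and counting error are unknown. Processing notes of the submitters name STAR 2.7.9, SAMtools 1.7, HTSeq 0.13.5, DESeq2 1.34.0 and GRCm39, and the study's methods describe, for gene set enrichment, Kallisto on a human reference transcriptome with each gene given the TPM of its highest transcript. Rows here carry mouse symbols, and whether that step made this table is not given in the sources used here. In every row at least 6 libraries were above 0, so that genes detected in N alone cannot be among the rows. Each gene's TPM depend on how reads of near-identical copies were divided.

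Libraries were grouped by the genotype and line of the labels. TPM were analyzed as log2(TPM + 1) with limma 3.58.1 in R 4.3.3 (trend and robust options) for genes that reached 1 TPM in 4 or more libraries, and p-values were adjusted by Benjamini-Hochberg over all tested genes. EY and N were compared across the 10 libraries, each EY line with N in a model of 4 line means, and the EY lines with one another by the F test of that model. Thresholds were an adjusted p of 0.01 and an absolute log2 fold change of 1, after the study. Alternatives covered the pseudocount, filter, scaling, variance options, blocks, line means and leaving out each library or line. Members and gene lists were chosen with earlier results of these data known. Each member in the table was named or counted, with test values for most called members, and up to 4 genes with the smallest adjusted p were considered of each other list. Promoters came from a RefSeq table of GRCm38.p6 and transcripts from GENCODE M21, with no coordinates taken from the authors' build. Equal sample numbers did not pair the libraries. Composition of the proteins was not analyzed here. Figures were drawn with matplotlib 3.10.9.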

Additional observations from a re-analysis of the deposited data

Results flagged for a closer look

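Within N or within EY, 88 groups of member values were examined for a single library far from the others, and 29 were found. For independent groups of normally distributed values, about 1 in 20, or 4.4, would be found by chance. Here the same library recurs across members and EY libraries are pairs of a line, so this number is no test of chance. In 26 of the 29 groups N sample 4 was far above the other 3 N libraries. These values of N sample 4 were, in TPM, 195 for Sprr1a, 142 for Sprr1b, 2.90 for Sprr2b, 64.3 for Sprr2d, 15.1 for Sprr2e, 48.2 for Sprr2f, 42.7 for Sprr2g, 39.6 for Sprr2h, 28.7 for Sprr2i, 24.4 for Sprr2k and 15.5 for Sprr3. Among Lce rows they were 0.131 for Lce1c, 6.04 for Lce3a, 27.3 for Lce3c, 7.34 for Lce3d, 5.67 for Lce3e and 4.67 for Lce3f. The remaining ones were 42.6 for Cnfn, 33.0 for Crct1, 1.40 for Rptn, 6.37 for Tgm1, 0.177 for Tgm3, 1.26 for Cdsn, 309 for Dmkn, 88.6 for Krt13 and 1.11 for Krt78.

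In EY a library lay far from the other 5 for 3 members, and these were Evpl, lowest at 4.14 TPM in EY3960 sample 1, Lce1c, at 0 TPM in EY4028 sample 1, and Lce3a, highest at 1.92 TPM in EY3960 sample 1. Lce1c and Lce3a were below the filter.

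The EY lines differed from one another by limma's F test in 10 members. The largest difference between a pair of lines, on the log2 scale, was 3.75 for Krt13, 3.55 for Sprr2d, 3.25 for Sprr2a2, 2.92 for Krtdap, 2.44 for Krt4, 2.39 for Sprr2j-ps, 2.10 for Sprr2k, 1.61 for Sprr2a1, 1.42 for Ivl and 1.18 for Dmkn.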

How the results depend on the processing

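Read depth is unknown, so that precision rests on the spread between libraries alone, and libraries of a single N line cannot show how far N lines differ. Of 2276 member fold changes under alternatives, 2108 kept direction and call, 52 lost a call, 74 gained one and 42, none called either way, turned sign. Leaving out N sample 4 accounted for 28 gained calls.

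For EY against N, 5 members were called, 5 to 6 when each library was left out in turn, and 7 with a pseudocount of 0.1, without EY3960 or without EY4174. The count was 3 with at least 1 TPM required in every library (22 members tested), 3 with line as a random block (Lce1f and Lce1g lost), and 0 with the mean of each line as 1 sample, by limma, where 2 genes were called in all and 6 members had an unadjusted p under 0.05. Leaving out each library in turn gave 8 to 25 members for EY3960, 4 to 15 for EY4028, 7 to 14 for EY4174 and 8 to 22 between the EY lines, with each highest count without N sample 4 and the lowest for EY3960 without its sample 2. Between the EY lines 22 were called from the EY libraries only, an alternative chosen after seeing the data.

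Sample numbers did not pair the libraries (12 correlations of deviations from -0.148 to 0.102). With the number as a replicate block, 2 members were called for EY, 25 for EY3960, 15 for EY4028, 13 for EY4174 and 22 between the lines. Numbers 3 and 4 occur only in N, so that this block takes those N libraries out of the residual spread. Under the block the uncalled log2 fold change turned sign to 0.27 for Sprr3 in EY, 0.083 for Tgm1 in EY3960, 0.17 for Krt4 and -0.011 for Sprr2a2 in EY4028, and 0.74, 0.37, 0.71, 0.27 and 0.10 for Sprr1a, Sprr2e, Sprr2f, Sprr2g and Sprr2k in EY4174.

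Without EY3960 the EY fold change turned to -0.066 for Ivl, 0.034 for Sprr2a1, 0.81 for Sprr2a2, -0.26 for Sprr2d and -0.021 for Sprr2g, and without EY4174 to 0.40 for Krtdap and 0.26 for Sprr3. Scaling by median ratios gave -0.084 for Sprr2a2 in EY4028 and 0.035 for Sprr2k in EY4174, quantile normalization gave 0.018 for Sprr2a2 in EY and 0.017 for Sprr2k in EY4174, and a pseudocount of 0.1 gave 0.066 for Krt4 in EY4028. Leaving out each library gave ranges through 0 in EY of -0.64 to 0.010 for Krtdap, -0.35 to 0.33 for Sprr2a2 and -0.71 to 0.28 for Sprr3. They were -0.35 to 0.11 for Tgm1 in EY3960, and -0.11 to 0.19 for Krt4, -0.044 to 0.078 for Sprr2a2 and -0.051 to 0.61 for Sprr2g in EY4028. In EY4174 they were -0.18 to 1.35 for Cnfn, -0.47 to 0.71 for Sprr1a, -0.51 to 0.44 for Sprr2e, -1.06 to 0.63 for Sprr2f, -0.48 to 0.18 for Sprr2g and -0.13 to 0.13 for Sprr2k. The cause of these changes was not tested.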
